A study of Rattus norvegicus with 8 samples.

Results

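Hemoglobin and erythroid transcripts were followed in the livers of cirrhotic rats through 6 genes, namely the globin genes Hbb, Hba-a1 and Hba-a2, the heme synthesis gene Alas2, the red cell anion exchanger gene Slc4a1 and the globin chaperone gene Ahsp. They were chosen by gene symbol in the platform annotation, which gives them 8 of the 31042 non-control probe sets, and 6 genes compare with 14217 genes that have a probe set of their own. The list was drawn up with the treated and vehicle values of these same arrays already known, so the differences between the groups are described here without a test. All rats were male Wistar rats made cirrhotic with inhaled carbon tetrachloride (CCl4), a hepatotoxin, and drank water with 0.3 g/L phenobarbital, which induces hepatic drug metabolism. The treated livers came from 4 rats labelled as given an antiangiogenic treatment, and the other livers from 4 cirrhotic rats labelled vehicle, which the design text of the series calls non-treated. The agent, its dose and the age of the animals could not be read from the labels or the design text. Healthy liver was not analysed here, and CCl4 and phenobarbital were common to both groups.

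Hemoglobin is a tetramer of alpha and beta chains, each holding a heme, and is made by erythroid precursors, which in the adult rat sit mainly in bone marrow and spleen. Alas2 is the erythroid form of the first enzyme of heme synthesis, Ahsp binds free alpha chains, and Slc4a1 encodes band 3, the anion exchanger that anchors the red cell skeleton. Young red cells that have just entered the circulation still carry globin messenger RNA, so a piece of liver holds such transcripts in the blood left in its vessels, and erythroid precursors in the tissue would add to them. In such bulk samples fewer cells of a type and less RNA per cell cannot be told apart, and neither can blood and tissue.

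The 3 alpha-globin probe sets are each annotated to Hba-a1 and Hba-a2 together. The sequences before the annotated starts of these genes show how alike the copies are, and what they hold in common with the other members described below. The windows are the 250 bases upstream of each start in the RefSeq promoter table of rat build GRCr8, which listed 4 of the 6 genes, and they are printed 5′ to 3′ on the strand of the gene. Capitals mark 3 motifs searched on both strands: the GATA motif of erythroid GATA factors (spelled as AGATAA or as AGATAG, or with a leading T as TGATAA or as TGATAG), the CACCC motif of Krüppel-like factors and the CCAAT box.
Hbb (GRCr8 chr1:167663722-167663971, minus strand): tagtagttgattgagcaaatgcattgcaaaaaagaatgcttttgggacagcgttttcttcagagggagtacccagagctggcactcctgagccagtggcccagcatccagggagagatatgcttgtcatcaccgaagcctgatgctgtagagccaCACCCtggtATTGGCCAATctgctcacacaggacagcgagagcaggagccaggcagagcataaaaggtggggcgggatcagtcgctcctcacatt
Hba-a1 (GRCr8 chr10:15842581-15842830, minus strand): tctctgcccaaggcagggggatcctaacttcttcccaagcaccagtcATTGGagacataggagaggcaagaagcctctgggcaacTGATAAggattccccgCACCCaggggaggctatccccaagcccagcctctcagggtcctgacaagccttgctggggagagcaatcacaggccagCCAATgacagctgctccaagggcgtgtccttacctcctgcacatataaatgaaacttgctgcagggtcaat
Hba-a2 (GRCr8 chr10:15829139-15829388, minus strand): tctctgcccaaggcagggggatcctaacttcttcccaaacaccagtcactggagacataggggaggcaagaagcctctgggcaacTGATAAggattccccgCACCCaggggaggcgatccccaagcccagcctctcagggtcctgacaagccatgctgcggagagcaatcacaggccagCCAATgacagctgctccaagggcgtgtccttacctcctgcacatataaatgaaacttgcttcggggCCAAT
Alas2 (GRCr8 chrX:22895200-22895449, plus strand): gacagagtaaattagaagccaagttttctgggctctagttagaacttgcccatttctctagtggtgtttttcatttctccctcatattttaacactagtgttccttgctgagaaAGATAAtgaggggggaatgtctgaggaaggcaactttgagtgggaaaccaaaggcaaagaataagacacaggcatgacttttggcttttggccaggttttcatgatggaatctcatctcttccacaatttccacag

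The Hba-a1 and Hba-a2 windows were identical at 241 of 250 positions compared without gaps (96.4%), and both held the TGATAA form of the GATA motif 165 bases before the start, CACCC 149 bases before it and a CCAAT box 71 bases before it. Each held 1 more CCAAT box that the other lacked, 203 bases before the start in Hba-a1 and 5 bases before it in Hba-a2. The Hbb window held CACCC and an adjoining pair of CCAAT boxes in opposite orientation, in which ATTGG runs directly into CCAAT, but none of the GATA letters searched. The Alas2 window held AGATAA alone, and its annotated start lies 4800 bases inside the span of the gene, so it is the window of an internal start. Of the 33469 windows of this length in the table, 27% held a GATA motif, 49.2% CACCC, 34% CCAAT, and 16.1% both CACCC and CCAAT. These matches are descriptions of the letters and not binding sites.

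The arrays set limits that touch every value below. Values are log2 intensities after robust multi-array average (RMA) summary, 1 array per liver, with array medians of 5.16 to 5.30 and 25th percentiles of 3.74 to 3.91. Treated replicate 3 and vehicle replicate 4 were nearly identical, with a median absolute deviation of their difference of 0.112 from its centre, while the other 27 pairs of arrays gave 0.169 to 0.272. Neither was dropped. Differences of the member probe sets and of the endothelial and lymphocyte lists are given with and without the pair, and other differences with it. Bacterial spike-in controls split the arrays into a first group of treated 1 and vehicle 1, a second of treated 2, treated 4, vehicle 2 and vehicle 3, with the near-identical pair as the third group. The labels give no batch. The 3′ to 5′ log2 ratio of the Gapdh controls spanned 0.133 to 0.404 in treated and 0.186 to 0.414 in vehicle livers. The design text speaks of 4 rats per group, and SDs are over n = 4 arrays per group.

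Adult globin transcripts were the most variable of the members, with 2.47 to 3.10 log2 units between the lowest and the highest liver. As the mean of the 4 globin probe sets, each centred on its own mean, they had −0.87 ± 0.64 in treated and 0.87 ± 0.85 in vehicle livers (SD, n = 4 each), a difference of −1.74 on the log2 scale, or 3.35-fold lower in treated livers. The vehicle group was not uniform, and this difference rests on 3 of its 4 livers. Alas2 was also highest in those 3 livers, while Slc4a1 and Ahsp were not.

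Hbb, the adult beta chain (probe set 1367553_x_at), had 8.55, 8.33, 9.41 and 9.49 on treated 1 to 4, against 11.33, 10.85, 11.38 and 9.42 on vehicle 1 to 4. Vehicle 1 to 3 stood above all treated livers, and vehicle 4 lay between treated 3 and treated 4, so the groups overlapped. The means were 8.94 ± 0.59 in treated and 10.75 ± 0.91 in vehicle livers (SD, n = 4 each), a difference of −1.80 or 3.49-fold lower in treated livers, and −2.40 without the near-identical arrays. The suffix x of this probe set marks probes that also match other transcripts, and on build GRCr8 Hbb lies in a row of related beta-globin genes.

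The alpha-globin probe sets set the same livers apart. Probe set 1370239_at had 9.13, 9.12, 10.28 and 10.56 on treated 1 to 4, against 12.21, 11.90, 12.11 and 10.26 on vehicle 1 to 4. Probe set 1370240_x_at had 9.31, 9.20, 10.34 and 10.47 on treated 1 to 4, against 12.26, 11.87, 12.12 and 10.42 on vehicle 1 to 4. Treated 1 and 2 were the lowest livers and vehicle 1 to 3 the highest in each of the 4 globin probe sets. Probe set 1388608_x_at had 8.85, 8.79, 9.82 and 9.70 on treated 1 to 4, against 11.16, 10.95, 11.26 and 9.73 on vehicle 1 to 4. Its difference of −1.48 (2.79-fold lower in treated livers) was smaller than the −1.85 (3.60-fold) of 1370239_at and the −1.84 (3.58-fold) of 1370240_x_at. Without the near-identical arrays these differences were −2.01, −2.47 and −2.43. The 3 sets report on the same 2 near-identical genes, so they are not separate evidence.

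**Figure D1:**
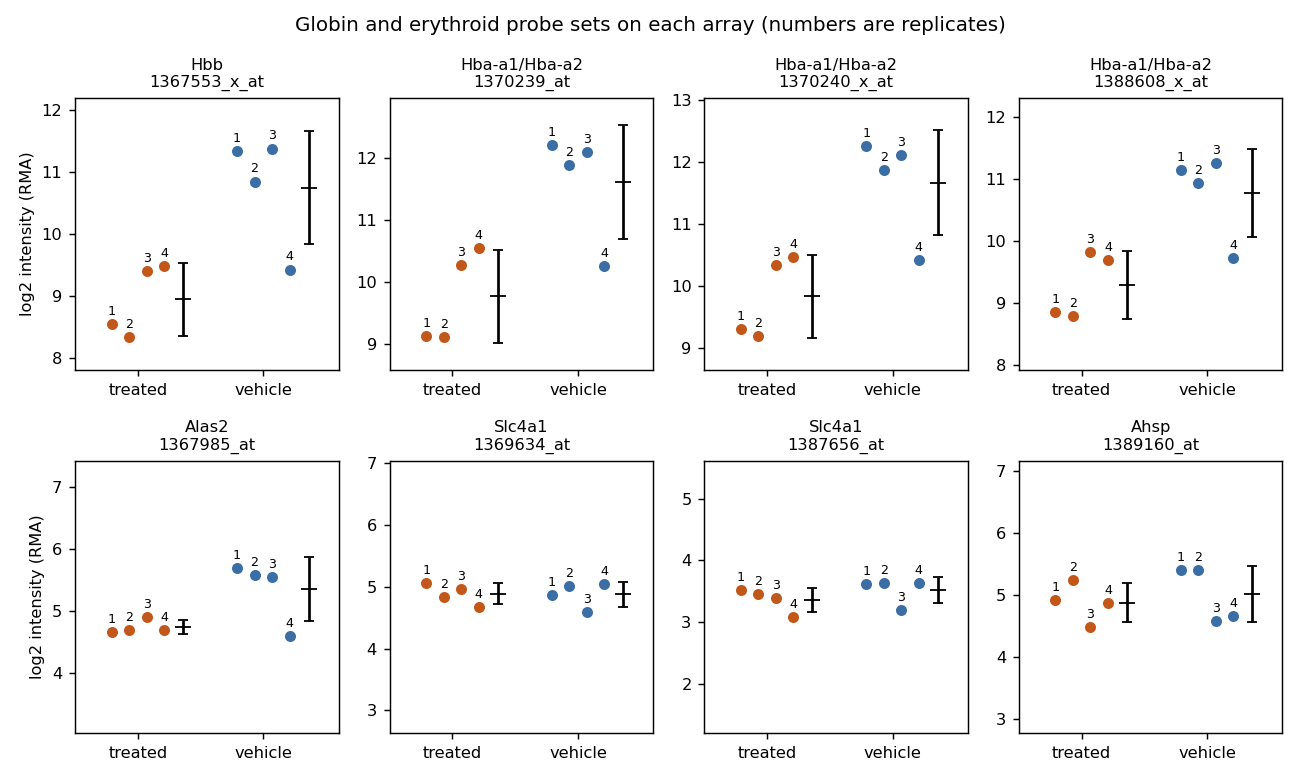
Log2 intensity (RMA) of the 8 member probe sets on each array, with treated livers left and vehicle livers right; numbers are replicates, the black mark is the group mean and its bar the SD over 4 arrays, and every panel spans the same height. In the 4 globin panels and for Alas2, vehicle 1 to 3 stand above the other 5 livers, and vehicle 4 lies among the treated livers in the globin panels and below them for Alas2.

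Alas2, the erythroid 5-aminolevulinate synthase (1367985_at), was dim but set the same 3 livers apart. It had 4.67, 4.69, 4.90 and 4.70 on treated 1 to 4, against 5.70, 5.58, 5.55 and 4.59 on vehicle 1 to 4. The 4 treated livers lay within a narrow band, vehicle 1 to 3 were above it and vehicle 4 was the lowest liver of all. The means were 4.74 ± 0.11 in treated and 5.35 ± 0.51 in vehicle livers (SD, n = 4 each), a difference of −0.61 or 1.53-fold lower in treated livers, and −0.92 without the near-identical arrays. RMA draws differences of dim probe sets towards 0, and Alas2 did not separate treated 1 and 2 from treated 3 and 4 as the globins did.

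Slc4a1 is measured by a pair of probe sets and neither set the livers apart. On 1369634_at it had 5.06, 4.84, 4.96 and 4.67 on treated 1 to 4, against 4.86, 5.01, 4.59 and 5.04 on vehicle 1 to 4, a difference of 0.01. On 1387656_at it had 3.53, 3.45, 3.40 and 3.09 on treated 1 to 4, against 3.63, 3.64, 3.21 and 3.63 on vehicle 1 to 4, a difference of −0.16. Without the near-identical arrays these differences were 0.04 and −0.13. The groups overlapped on both, and the second probe set lay below the 25th percentile of every array, where RMA values carry little information on level. Vehicle 3, among the highest livers in globins, had the lowest Slc4a1 value of the vehicle group on both probe sets.

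Ahsp, the alpha-hemoglobin stabilizing protein (1389160_at), had 4.92, 5.24, 4.48 and 4.87 on treated 1 to 4, against 5.40, 5.41, 4.59 and 4.66 on vehicle 1 to 4. Vehicle 1 and 2 were highest, but vehicle 3 stood next to vehicle 4 at the low end and treated 2 followed vehicle 1 and 2. The means were 4.88 ± 0.31 in treated and 5.01 ± 0.45 in vehicle livers (SD, n = 4 each), and the difference of −0.13 was smaller than either SD. Without the near-identical arrays the difference was −0.12.

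In 5 of the 8 probe sets, the 4 globin sets and Alas2, vehicle 1 to 3 were the 3 highest livers. In the sets of Slc4a1 and Ahsp those livers were not the highest. The group means of these sets, at 3.37 to 5.01, lay below all array medians (5.16 to 5.30). Alas2 was also dim, at 4.74 in treated and 5.35 in vehicle livers. RMA shrinks differences of dim probe sets, which holds for Alas2 as for Slc4a1 and Ahsp. Whether this bears on the order of livers in Slc4a1 and Ahsp was not tested. Whether the 6 genes act as 1 measure of blood content was not tested either. Over the 8 arrays, which count the near-identical pair as separate, the profiles of the 4 globin probe sets followed each other almost exactly, and the largest gap between livers was 8.56-fold for 1370239_at, 8.26-fold for Hbb and 2.16-fold for Alas2. For Ahsp this gap was 1.90-fold, and for Slc4a1 it was 1.39-fold and 1.46-fold. The mean of all 8 centred probe sets spanned 1.61 log2 units over the livers, and that of the globins alone 2.88.

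Within the spike-in groups the globin difference took 3 sizes. In the first group, 1 treated against 1 vehicle liver, the globin mean differed by −2.78 between them. In the second, 2 against 2, the difference was −2.10, and in the third, the near-identical pair, it was 0.00437. For Alas2 the corresponding differences were −1.03, −0.87 and 0.31. Ahsp gave −0.48, 0.06 and −0.18, and Slc4a1 stayed between −0.23 and 0.20 on its probe sets. The globin difference exceeded the pooled difference in each group outside the near-identical pair, as it must on average where that pair differs by 0.00437. The groups were not matched in spike-in signal. The bacterial control BioB was lowest on vehicle 1 to 3, at 7.39, 7.52 and 7.43, against 7.81 to 8.97 on the other arrays. BioB thus set apart the same livers as the globins, and whether the globin difference is separate from this split was not tested.

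**Figure D2:**
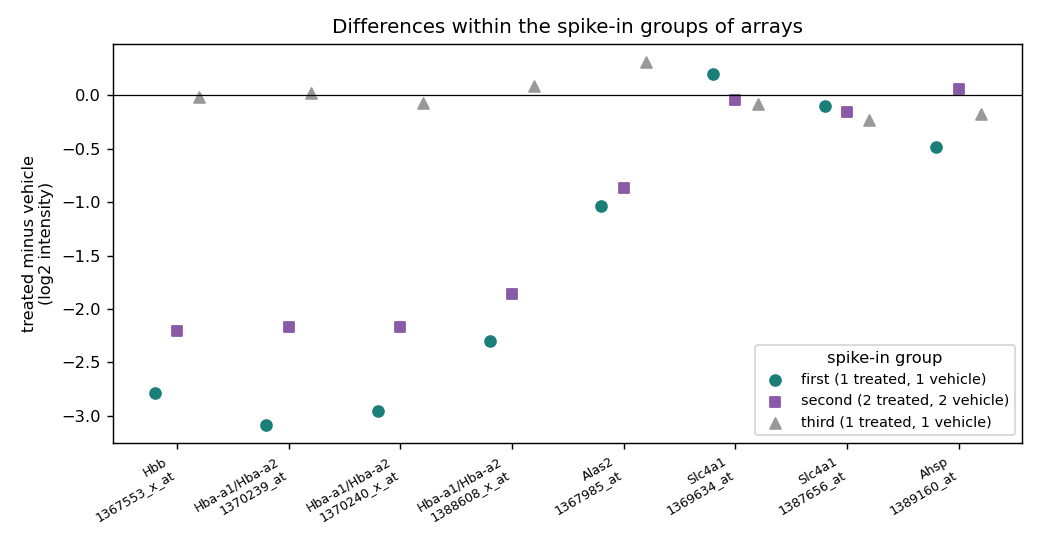
Treated minus vehicle difference (log2 intensity) of each member probe set within the 3 groups of arrays set by the bacterial spike-in controls; each point is 1 array against 1 array in the first and the third groups and the means of 2 against 2 in the second. The globin points lie between −3.08 and −1.86 in the first and second groups and between −0.07 and 0.09 in the third.

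With Benjamini-Hochberg adjustment over all probe sets, limma called 0 of 31042 between the groups (0%, smallest adjusted p = 0.979) and 0 of the 8 member probe sets. At an unadjusted p of 0.05 it called 1220 probe sets (3.93%), 634 of them lower in treated livers (2.04%), and 5 of the 8 members, all lower. At least 2-fold lower in treated livers were 4 members, all globin, against 269 of all probe sets (0.867%). The groups did not overlap at 0 members, against 518 of all probe sets (1.67%). Because the members were named with this contrast known, these counts describe them and support nothing further.

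Other red cell genes were taken as lists, with 1 probe set per gene, and set against the 14217 genes, of which 48.4% were lower in treated livers with a median difference of 0.01. Of the 124 measured genes of 13 lists, 0 passed over all probe sets by limma, and 11 lower and 2 higher had an unadjusted p under 0.05. Of all probe sets, 3.93% passed that threshold in either direction and 2.04% were lower. The list of red cell membrane and skeleton genes had 7 of 14 lower in treated livers and a median difference of −0.002. This list had 3 genes at or below the 25th percentile, where RMA values carry little information on level. In it, Xk, part of the Kell blood group complex, had 6.44 ± 0.48 in treated and 5.89 ± 0.32 in vehicle livers, and Cd47, a surface signal on red cells and most other cells, 9.54 ± 0.42 and 10.09 ± 0.25. The list mean spanned 5.51 to 5.74 in treated and 5.61 to 5.76 in vehicle livers. The ankyrin gene Ank1 and the spectrin gene Sptb differed by 0.04 and −0.09. Both were dim, at 5.03 and 4.92 in treated and 4.99 and 5.01 in vehicle livers.

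Erythroid transcription factors and the erythropoietin axis were evenly split, with 6 of 12 lower and a median of −0.01. Of the 12, 4 lay at or below the 25th percentile. Gata1 and Klf1, which drive globin transcription in precursors, differed by 0.01 and 0.06, with Gata1 below the 25th percentile at 3.56 in treated and 3.54 in vehicle livers. Of this list, Nfe2 had 6.26, 3.25, 3.43 and 3.18 on treated 1 to 4, against 3.34, 3.77, 3.03 and 3.51 on vehicle 1 to 4. Its difference of 0.62 rests on treated 1 and was −0.13 without it. Lmo2, also an endothelial factor, averaged 6.38 ± 0.39 in treated and 6.84 ± 0.52 in vehicle livers, and Ldb1 7.36 ± 0.16 and 7.20 ± 0.19. Red cell enzymes and late erythroid genes had 5 of 10 lower and a median of 0.01. There Rgs10, a regulator of G protein signalling found in many blood cells, had 6.73 ± 0.77 in treated and 8.13 ± 1.04 in vehicle livers, Gclm, a glutathione synthesis subunit, 10.64 ± 0.42 and 9.97 ± 0.82, and Cat, catalase, 12.72 ± 0.19 and 12.66 ± 0.23. Gclm and Cat are also expressed in hepatocytes.

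Heme synthesis genes other than Alas2 did not lie lower, with 11 of 12 higher in treated livers and a median of 0.28. Most of them serve hepatocytes, which make heme for cytochromes P450. Alas1, the hepatic isoform of the enzyme, averaged 12.02 ± 0.63 in treated and 11.89 ± 0.38 in vehicle livers. Tmem14c, a mitochondrial porphyrin transporter, averaged 9.74 ± 0.11 and 9.20 ± 0.34, and Flvcr1, a heme exporter, 6.36 ± 0.49 and 6.46 ± 0.43. The list mean spanned 8.54 to 9.02 in treated and 8.31 to 8.76 in vehicle livers.

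Iron uptake genes had 3 of 7 lower and a median of 0.20. Slc25a37, the mitochondrial iron importer, averaged 6.82 ± 0.40 in treated and 6.29 ± 0.22 in vehicle livers, Slc11a2, a divalent metal transporter, 8.38 ± 0.20 and 8.65 ± 0.15, and Hamp, the iron hormone hepcidin, 13.01 ± 0.33 and 12.52 ± 0.52. Genes that clear heme and hemoglobin had 2 of 8 lower and a median of 0.08. Hp, the plasma hemoglobin binder haptoglobin, averaged 14.27 ± 0.07 in treated and 14.27 ± 0.08 in vehicle livers, near the top of the array scale. Lrp1, a receptor for hemopexin with heme, averaged 10.56 ± 0.33 and 10.22 ± 0.12, and Spic, a factor of red pulp macrophages, 4.65 ± 1.05 and 5.12 ± 0.38.

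The single-symbol alpha-like gene Hba-a3 (1375519_at) had 7.03, 7.14, 7.63 and 7.21 on treated 1 to 4, against 8.37, 8.26, 8.39 and 7.46 on vehicle 1 to 4, again with vehicle 1 to 3 highest and treated 1 and 2 lowest. The difference was −0.87, or 1.83-fold lower in treated livers. The embryonic and fetal-type genes Hbe1, Hbe2, Hbg1 and Hbz stayed between 2.97 and 3.94 on every array, below or close to the 25th percentile, with differences of 0.05, −0.09, −0.05 and −0.02. A probe set annotated to a pair of further beta-globin genes (1371102_x_at) differed by −1.85, and a second one annotated to the same genes (1371245_a_at) by −1.87 with a different order of livers. Over the 8 measured genes of this list, 5 were lower with a median of −0.03. Of the 8, 5 lay at or below the 25th percentile, and probe sets annotated to several genes, such as 1371102_x_at and 1371245_a_at, were not counted. Cygb, cytoglobin of stellate cells, averaged 8.12 ± 0.97 in treated and 8.86 ± 0.60 in vehicle livers, and Ngb, neuroglobin, 6.40 ± 0.36 and 6.35 ± 0.39.

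Markers of vessels and of other blood cells were read in the same livers. Vascular endothelial markers were lower in treated livers at 11 of 11 genes with a median of −0.56 (−0.74 without the near-identical arrays), and 5 had an unadjusted p under 0.05 by limma. Of all probe sets, 2.04% were lower at that threshold. Their list mean spanned 6.15 to 6.51 in treated and 6.39 to 7.27 in vehicle livers, with vehicle 4 at 6.39 and vehicle 1 to 3 at 7.15 to 7.27, so the same 3 livers were high. Cldn5 averaged 4.29 ± 0.38 in treated and 6.04 ± 1.33 in vehicle livers, Vwf 8.17 ± 0.57 and 8.43 ± 0.38, and Flt1 4.11 ± 0.10 and 4.35 ± 0.15. Aqp1, a water channel of endothelium and also of the red cell membrane, averaged 7.09 in treated and 8.15 in vehicle livers. No marker of the list lay at or below the 25th percentile, and the part of vessel content in the globin values was not tested.

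Of the blood lymphocyte markers 4 of 7 had a lower treated mean (median −0.29, and −0.40 without the near-identical arrays). The other 3, Cd8a, Cd79b and Ms4a1, had a higher treated mean, and 1 of the 7 lay at or below the 25th percentile. The list mean spanned 4.61 to 5.22 in treated and 4.76 to 5.44 in vehicle livers. Vehicle 1 to 3 were again the highest livers, at 5.44, 5.25 and 5.32, by a small margin over treated 4 at 5.22, and vehicle 4 had 4.76. Ptprc, the pan-leukocyte antigen, averaged 7.31 ± 0.73 in treated and 8.31 ± 0.79 in vehicle livers, and Cd8a 4.92 ± 0.83 and 4.57 ± 0.25. Of the neutrophil markers 7 of 10 had a lower treated mean (median −0.10), and 5 of the 10 lay at or below the 25th percentile; the list mean spanned 4.52 to 5.15 in treated and 4.41 to 5.30 in vehicle livers. In it Lcn2, also an acute phase gene of hepatocytes, averaged 8.98 ± 1.61 in treated and 9.50 ± 1.59 in vehicle livers, and Mmp9 3.80 ± 0.10 and 3.52 ± 0.27.

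Platelet markers had a lower treated mean at 4 of 11 (median 0.08), and the list mean spanned 5.07 to 5.35 in treated and 5.07 to 5.18 in vehicle livers. Of the 11, 1 lay at or below the 25th percentile, and several others had group means below all array medians. Their bearing on blood content was not tested. Pf4, platelet factor 4, averaged 8.23 ± 1.03 in treated and 8.30 ± 0.66 in vehicle livers, Itga2b 6.39 ± 0.32 and 6.07 ± 0.39, and Itgb3 6.96 ± 0.31 and 7.20 ± 0.24. Hepatocyte markers had a lower treated mean at 6 of 9 (median −0.03), with Alb at 14.82 ± 0.03 in treated and 14.84 ± 0.02 in vehicle livers, Apoa1 at 12.95 ± 0.76 and 13.59 ± 0.15, and Hnf4a at 12.01 ± 0.27 and 11.85 ± 0.24. Cycling cell genes had a lower treated mean at 5 of 5 (median −1.44, which was −0.97 without treated 1 and −2.19 without treated 4); Mki67 averaged 5.62 ± 1.84 in treated and 7.39 ± 0.93 in vehicle livers, Top2a 6.66 ± 0.92 and 7.30 ± 0.79, and Cdk1 6.35 ± 1.70 and 7.79 ± 0.87. The order of livers in cycling genes was not that of the globins, since treated 4 at 7.80 exceeded vehicle 2 and 3 at 7.01 and 7.32.

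**Figure D3:**
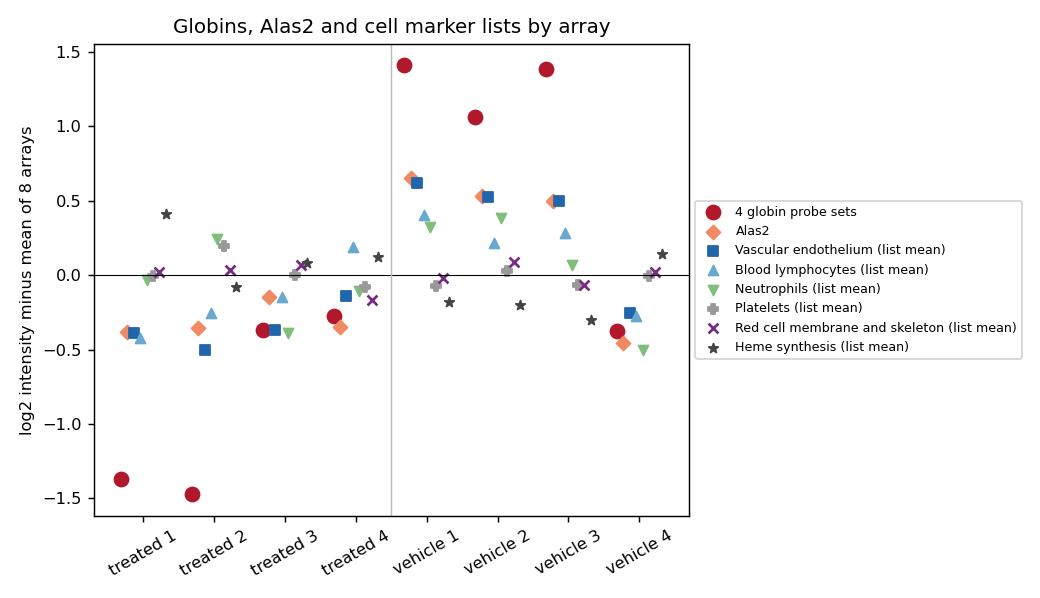
Log2 intensity minus the mean of the 8 arrays, for the mean of the 4 globin probe sets, for Alas2 and for the means of 6 marker lists, with treated livers left of vehicle livers. The globin mean runs from −1.47 in treated 2 to 1.41 in vehicle 1, and platelets and red cell membrane genes stay near 0. The endothelial list is high on the same 3 vehicle livers, and the lymphocyte list is highest there too, by a small margin.

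Among 3490 other genes with a mean above 6 and an SD above 0.3, the likeness to the globin mean was measured as Pearson's r over the 8 arrays and is given as a description. The 8 most alike were Gnb4, Pde10a, Emp1, Podxl, Napsa, C5ar1, Hba-a3 and Pde2a, with likeness from 0.983 down to 0.964. Likeness above 0.9 was reached by 86 genes, and all 8 arrays share 1 RMA run. Pde10a, a cyclic nucleotide phosphodiesterase, had 5.30, 4.95, 5.96 and 5.95 on treated 1 to 4, against 7.29, 7.18, 6.80 and 6.14 on vehicle 1 to 4. The 5 genes most like Alas2 were Srgn, Hba-a3, Myl9, Spn and RT1-Ba, with likeness from 0.958 down to 0.941, and 30 genes exceeded 0.9. Hba-a3 was the 1 gene in both sets.

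**Figure D4:**
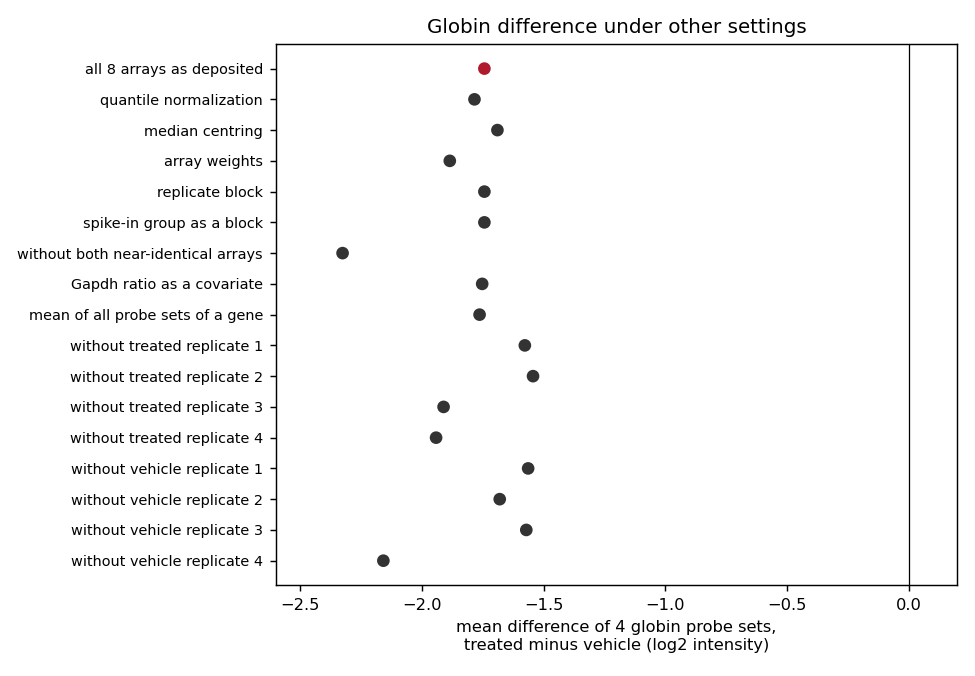
Mean treated minus vehicle difference of the 4 globin probe sets (log2 intensity) with all 8 arrays as deposited (red) and under 16 other settings (black). The values lie between −2.33, without both near-identical arrays, and −1.54, without treated replicate 2. The replicate block and the spike-in block leave the value unchanged by design.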

How the data were processed

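Liver RNA of 8 rats was hybridized to Affymetrix Rat2302 arrays, 4 per group by sample title. Per the labels' protocols, cRNA was primed from the poly(A) tail, so signal depends on RNA integrity and distance from the 3′ end. Per the submitters' processing notes, the authors used affy and RMA, with versions not given in the sources used here. The deposited log2 intensity values were used as they stand, without the 57 control probe sets, and 0 columns were left unused. The number of arrays limits the precision. Symbols came from the platform annotation (20826 probe sets with 1 symbol, 436 with several, 9780 with none), and the identifiers of all 6 genes matched RefSeq (GRCr8).

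The whole table was fitted with limma 3.58.1 in R 4.3.3 (lmFit, eBayes, no covariates, Benjamini-Hochberg adjustment, threshold 0.05), checked on simulated data. The members, lists and rules were chosen with earlier results of these data known. Every member probe set is named. In each list the genes with the highest mean and the largest difference in each direction are named. Where all genes of a list were lower, the gene with the smallest negative difference was named instead (Flt1 and Top2a). Gata1, Klf1, Ank1, Sptb, Aqp1, Cd79b, Ms4a1 and the embryonic globins were added after their values were seen. Spike-in groups were read from BioC more than 1 above BioB for the first group and BioB above 8.5 for the near-identical pair. Alternatives were normalization, filters, variance models, array weights, blocks, a Gapdh covariate and leaving out arrays.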

Additional observations from a re-analysis of the deposited data

Results flagged for a closer look

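Within a group of 4 arrays, a value was marked when its gap to the nearest array exceeded 0.829 of the group's range (Dixon's test), which chance does in about 5% of groups; 46 groups were checked and 5 were marked. Vehicle 4 stood far below the other vehicle livers in alpha globin 1370239_at (gap share 0.838, value 10.26), in Alas2 (0.862, value 4.59) and in the mean of the vascular endothelial list (0.864, value 6.39). This is the array that nearly matches treated 3. Treated 3 stood above the other treated livers in Alas2 (0.862, value 4.90). Vehicle 3 stood below the other vehicle livers in the dim Slc4a1 probe set 1387656_at (0.968, value 3.21).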

How the results depend on the processing

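The globin difference stayed negative under 18 of 19 alternatives. Among these, the replicate block and the spike-in block are balanced over the groups, so they could not change its size. The globin difference was −2.78 within the first spike-in group and 0.00437 within the third, the exception. Leaving out 1 array moved it between −2.16 (without vehicle 4) and −1.54 (without treated 2). The median over all 8 member probe sets was −1.05 as deposited, −1.67 and −0.045 within those groups, −1.82 over the globins alone, and −1.35 to −0.93 when 1 array was left out. The spread of the erythroid mean over the arrays was 1.61, 2.88 with the globins alone, and 1.44 to 1.61 without 1 array. The count of called probe sets was 0 to 11 when 1 array was left out, 11 without vehicle 4, and 3 without both near-identical arrays, with 0 members called each time, and 0 under the other alternatives. Deviations of same-numbered arrays from their group means correlated at −0.62 to 0.04. Arrays of different number were not compared in this way, so these values do not decide whether the replicate numbers pair the arrays. With the replicate number as a block, which leaves the globin difference at −1.74 by design, limma called 0 probe sets (785 at an unadjusted p of 0.05, against 1220). The iron uptake median was 0.04 without treated 4, and the difference turned sign on leaving out 1 array for 10 of the 36 genes named from the lists by their differences or highest level (Ngb, Alas1, Flvcr1, Nfe2, Cat, Hp, Pf4, Lcn2, Cd8a and Vwf). The pairing of a near-copy across the groups and the dim Slc4a1, Ahsp and Alas2 signals limit what the arrays can resolve.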

Other observations

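The second probe set annotated to the further beta-globin genes, 1371245_a_at, had 7.30, 5.35, 8.87 and 8.53 on treated 1 to 4, against 10.37, 10.64, 7.75 and 8.74 on vehicle 1 to 4. Vehicle 3 was the lowest vehicle liver there, although it was among the highest in Hbb and in the other probe set of the same annotation, 1371102_x_at (9.32). The range over the 8 livers was 5.30 log2 units, wider than that of any member. Treated 2 was the lowest liver on both of these probe sets, at 5.35 and 6.23.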
